A study of Rattus norvegicus with 6 samples.

Results

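The genes described here encode the tight, adherens and desmosomal junctions of the colon epithelium. They were chosen as a fixed list of 40 gene symbols in 4 roles, of which 38 matched a gene of the enterocyte count tables, among 17388 genes in all. The list was chosen with earlier results of these data known, so member counts and medians set beside all genes are descriptions. By role, 21 of 22 tight junction genes, 8 of 8 adherens genes, 4 of 4 polarity genes and 5 of 6 desmosome genes were found; Cldn1 and Pkp2 are not analysed here. All 38 genes found passed the filter on low counts, which left 9424 genes to be tested.

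Epithelial cells seal the gut wall with a stack of junctions at their sides. In the tight junction, claudins and occludin of neighbouring cells meet and set which ions and molecules pass between the cells, and zonula occludens and cingulin proteins tie them to actin. Below it, E-cadherin and nectins hold cells together in the adherens junction through catenins, polarity kinases position the whole complex, and desmosomes anchor the keratin filaments. Claudins can make a barrier (Cldn3, Cldn4, Cldn7) or a channel (Cldn2, Cldn15), and loss of junctions is a known feature of colitis.

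Single nuclei RNA sequencing was performed on flash-frozen colon of wildtype male Wistar rats, with 3 rats in each of the sham, placebo and PL8177 arms. Both capsule arms were given 5% dextran sulfate sodium (DSS) for 3 days in the drinking water, a detergent-like polymer that injures the colon epithelium. From day 4 to day 7 these arms took capsules 2 times a day, either without drug (placebo) or with PL8177 50 µg, a melanocortin 1 receptor agonist in an oral polymer formulation. Sham rats drank water only, and no capsules are stated for them, so sham and placebo differed in the DSS and in the capsules. Cell types are those the authors assigned, and the enterocyte and T cell nuclei were used here. The sample labels give 1 table per cell type and treatment, and the library tag with which a nucleus is named was read as standing for 1 rat: GR12, GR13 and GR15 in sham, GR22, GR23 and GR24 in placebo, and GR41, GR43 and GR44 in PL8177. In the treatment comparisons, p-values measure the spread between these 9 library tags. In the comparisons of nuclei within tags, where the tag was a block, they measure how the difference within a tag varied.

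The 8782 enterocyte nuclei (2464 sham, 2959 placebo and 3359 PL8177) held between 319125 and 4123319 unique molecular identifiers (UMIs, which count captured RNA molecules) in each library tag. The median was 437 to 2331 UMIs per nucleus. The labelled cell type was checked against its markers: summed enterocyte markers reached 108 to 277 UMIs per 10000 in the 9 tags and T cell markers 0.161 to 0.868. T cell markers were lower in PL8177 (0.161 to 0.373) than in placebo enterocyte nuclei (0.406 to 0.868), and the part of this difference in the results below was not tested. In the nuclei labelled T cells of placebo tag GR23, enterocyte markers reached 143 UMIs per 10000 and T cell markers only 2.13, so values resting on T cell nuclei are given without that tag. Of 9790 barcodes, 10 occurred under more than 1 tag. A level is given as UMIs per 10000 UMIs of the enterocyte nuclei of 1 tag, and it is not corrected for gene length, so levels are compared between samples and not between genes. Fewer transcripts per nucleus and fewer nuclei with the transcript cannot be told apart in such sums.

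Summed over its members, the level of each kind of junction overlapped between treatments, except for the adherens group in PL8177 against placebo. The 21 tight junction genes summed to 58.1 ± 6.70 (SD, n = 3) in sham, 57.0 ± 5.61 in placebo, against 59.8 ± 5.80 UMIs per 10000 in PL8177. The 8 adherens genes summed to 62.6 ± 8.21, 59.0 ± 4.64 and 74.1 ± 4.54, and the 3 PL8177 tags (69.3 to 78.3) all lay above the 3 placebo tags (54.3 to 63.5). The 4 polarity genes summed to 11.5 ± 1.78, 11.3 ± 0.575 and 11.2 ± 0.956, and the 5 desmosome genes to 20.1 ± 3.40, 19.99 ± 0.998 and 20.7 ± 2.67. A sum is weighted to its abundant members, so the single genes are described next.

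**Figure D1:**
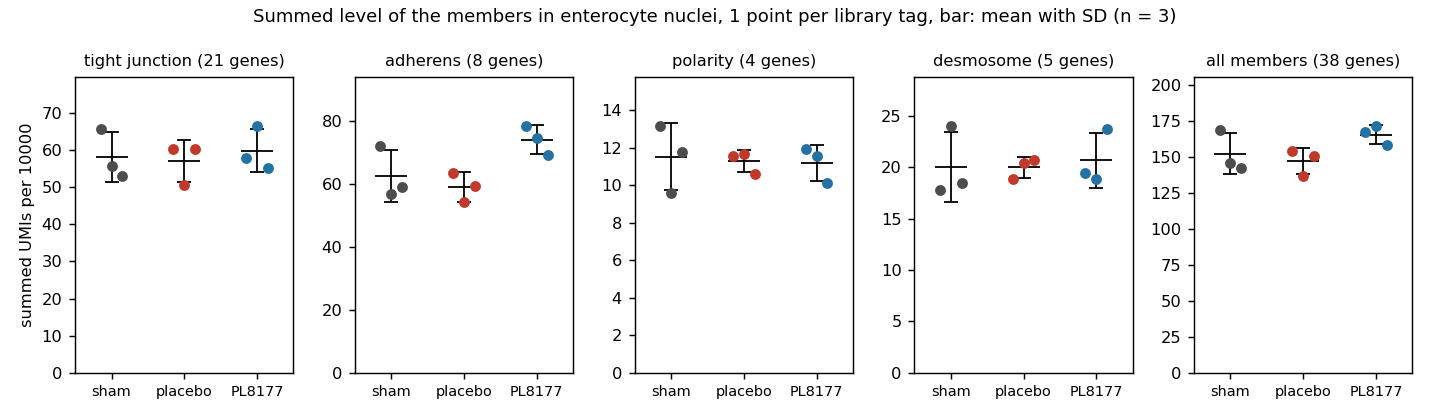
Summed level of the junction genes of each role (UMIs per 10000 UMIs of enterocyte nuclei, y axis from 0) by treatment; points are library tags and bars the mean with SD (n = 3). The tight junction, polarity and desmosome sums overlap between treatments, and the adherens sum of the PL8177 tags (69.3 to 78.3) lies above that of the placebo tags (54.3 to 63.5). The sum of all members, in the last panel, is 158 to 171 in the PL8177 tags and 137 to 154 in the placebo tags.

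No junction gene passed the adjusted threshold of edgeR's quasi-likelihood test (adjusted p below 0.05 with a log2 fold change beyond 0.5 in size) in any treatment comparison, and nor did any other gene (0 of 9424, or 0%, in each). At an unadjusted p below 0.05 there were 8 of the 38 in sham against placebo, where 12.4% of all genes did so, 7 in PL8177 against placebo (background 9.24%) and 3 in PL8177 against sham (background 6.59%). In sham against placebo 6 were higher (background 6.54%) and 2 lower (5.9%), in PL8177 against placebo 5 higher (5.5%) and 2 lower (3.75%), and in PL8177 against sham 2 higher (3.09%) and 1 lower (3.5%). DESeq2 called Nectin3 in sham against placebo (1.14% of all genes called) and Micall2 in PL8177 against placebo (0.531%), and none of the 38 in PL8177 against sham (0.0424%). The 3 and 3 library tags did not overlap for 6 members in sham against placebo (19.6% of all genes), 7 in PL8177 against placebo (18.8%) and 4 in PL8177 against sham (12%). Among the members without overlap, 4 of the 6 were higher in sham (background 5.36%) and 2 lower (14.3%), 5 of the 7 were higher in PL8177 than in placebo (4.7%) and 2 lower (14.1%), and 3 of the 4 were higher in PL8177 than in sham (6.02%) and 1 lower (6.01%). The 3 comparisons share their samples in pairs and are not independent of each other.

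The median log2 fold change of the 38 members was 0.08 in sham against placebo, beside -0.02 over all genes tested. It was 0.22 in PL8177 against placebo, beside -0.01, and 0.12 in PL8177 against sham, beside 0.03. In PL8177 against placebo 29 of the 38 fitted changes were above 0, where 48.7% of all genes were. That count was 21 of 38 when scaled by total UMIs only (34.7% of all genes) and 19 of 30 in surface-marker nuclei (49.7%), which are those with a UMI of a surface colonocyte marker, defined below. In sham against placebo 23 were above 0 (background 48.3%), and 17 of 38 by total UMIs only (38% of all genes). In PL8177 against sham 23 were above 0 (background 52.8%), and 14 of 32 in nuclei thinned to 300 UMIs (50.3%). By role, the medians in PL8177 against placebo were 0.14 for the tight junction, 0.32 for the adherens, 0.15 for the polarity and 0.20 for the desmosome genes.

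**Figure D2:**
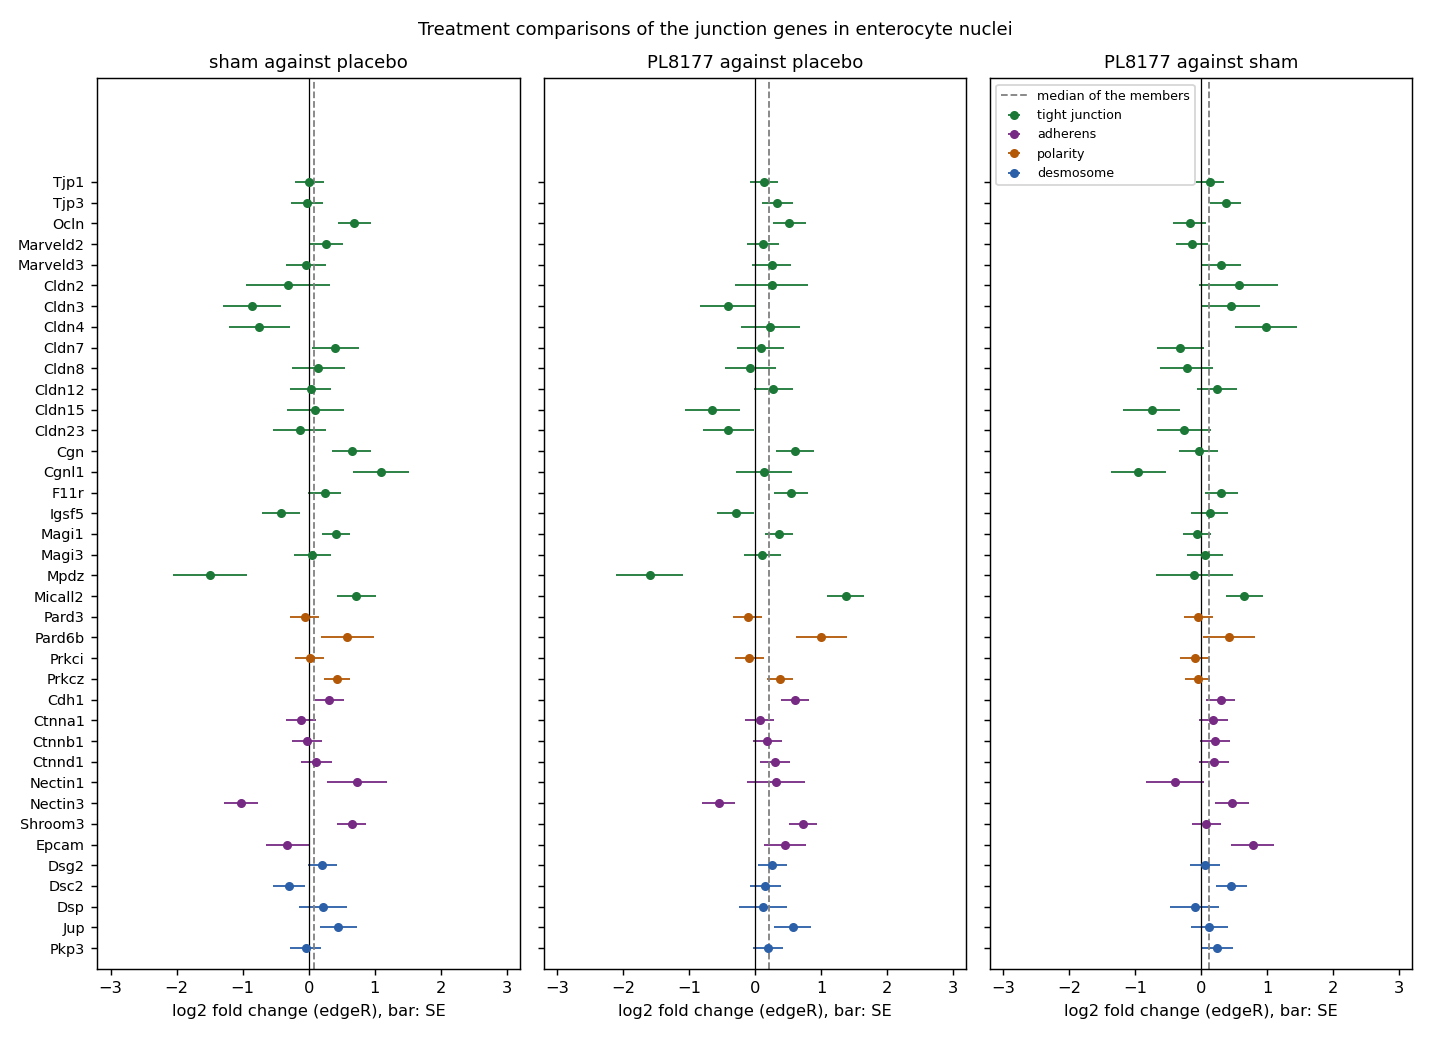
Fitted log2 fold change (edgeR, bars are SE) of the 38 junction genes in the 3 treatment comparisons, coloured by role, with the median of the members as a dashed line. Most points lie within 1 of 0; Mpdz and Nectin3 lie below 0 in both comparisons with placebo, and in PL8177 against placebo 29 of the 38 lie above 0.

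Among the transmembrane proteins of the tight junction, occludin (Ocln), a strand protein that seals the space between cells, had a lower mean level in placebo than in sham. Its level was 5.43, 5.17 and 5.33 UMIs per 10000 in the sham tags, 2.73, 3.73 and 4.53 in the placebo tags, against 3.63, 5.10 and 5.26 in the PL8177 tags. All sham tags lay above all placebo tags, while the PL8177 tags overlapped both. The log2 fold change was 0.69 ± 0.25 (SE) in sham against placebo by edgeR's quasi-likelihood test (unadjusted p = 0.0168, Benjamini-Hochberg adjusted p = 0.313) and 0.52 ± 0.25 in PL8177 against placebo (adjusted p = 0.560), where it was 0.34 ± 0.24 when scaled by total UMIs only. The junctional adhesion molecule F11r, an immunoglobulin-type protein of the same strands, had levels of 5.22, 3.94 and 4.22 in sham, 4.07, 3.13 and 5.23 in placebo, against 4.45, 5.63 and 6.25 in PL8177. The groups overlapped, with a log2 fold change of 0.55 ± 0.25 in PL8177 against placebo (edgeR, unadjusted p = 0.0497, adjusted p = 0.540), and 0.36 without placebo replicate 2 (GR23).

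The fitted changes of the 8 claudins lay on both sides of 0. In both comparisons with placebo 4 of the 8 fitted changes were above 0, with a range of -0.86 to 0.41 in sham and -0.65 to 0.28 in PL8177, and none had an unadjusted p below 0.05. Cldn4, a barrier claudin of surface colonocytes, was the claudin whose groups separated in PL8177 against sham. It had 1.02, 1.05 and 1.11 UMIs per 10000 in sham, 1.72, 3.22 and 1.27 in PL8177, and 2.31, 0.564 and 2.78 in placebo. The sham tags were close to each other and below the PL8177 tags, and the placebo tags lay on both sides of the sham tags. The log2 fold change of Cldn4 was 0.98 ± 0.46 in PL8177 against sham (edgeR, unadjusted p = 0.0545, adjusted p = 0.747), and 0.54 without PL8177 replicate 2 (GR43). In sham against placebo the Cldn4 value was -0.75 ± 0.46 (edgeR, unadjusted p = 0.13), and without placebo replicate 2 (GR23) it was -1.15 ± 0.33 (unadjusted p = 0.0049, adjusted p = 0.298). Without that tag the PL8177 against sham value was 0.97 ± 0.30 (edgeR, unadjusted p = 0.00839, adjusted p = 0.689). Cldn3, a barrier claudin, varied most in placebo, at 2.94, 0.595 and 1.71, against 0.767 to 1.14 in sham. Cldn15, which forms cation channels, was at 0.261 to 0.404 in sham, 0.209 to 0.533 in placebo, against 0.0951 to 0.269 in PL8177. Cldn2, a cation channel of leaky epithelia, had only 86 UMIs in all tags together, and its changes were not resolvable at this depth.

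The cytoplasmic plaque of the tight junction gave the smallest unadjusted p of a member. Micall2, an adaptor that brings junction proteins to the membrane with Rab13, had 0.392, 0.282 and 0.271 UMIs per 10000 in placebo, 0.468, 0.601 and 0.384 in sham, and 0.867, 0.812 and 0.572 in PL8177. Every PL8177 tag was above every placebo tag, and the sham and placebo tags overlapped slightly. In PL8177 against placebo its log2 fold change was 1.37 ± 0.28 by edgeR's quasi-likelihood test (unadjusted p = 0.000355, adjusted p = 0.239), and DESeq2 called it (adjusted p = 0.0197). It was 0.72 ± 0.30 in sham against placebo (edgeR, adjusted p = 0.360) and 0.65 ± 0.28 in PL8177 against sham (adjusted p = 0.747). With nuclei thinned to 300 UMIs the PL8177 against placebo value of Micall2 was 0.70 ± 0.38, and in surface-marker nuclei it was 0.31 ± 0.42. The sham against placebo value was 0.41 ± 0.40 and 0.02 ± 0.43 in these settings, and the PL8177 against sham value 0.29 ± 0.37 and 0.29 ± 0.41. A Micall2 UMI was found in 1.31% of sham, 1.05% of placebo and 1.65% of PL8177 enterocyte nuclei thinned to 300 UMIs. In thinned nuclei labelled T cells the share was 1.85% in sham (2 of 108) and 1.12% in PL8177 (1 of 89). The Micall2 shares in enterocyte nuclei were thus not above this sparse T cell background by more than counting error.

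Cingulin (Cgn), which links the tight junction to actomyosin, was at 3.79, 3.89 and 3.30 in placebo, against 5.24, 4.03 and 5.56 in PL8177, without overlap. In sham it was at 3.48, 6.95 and 4.80, a range that overlapped the placebo tags. The log2 fold change of Cgn was 0.61 ± 0.29 in PL8177 against placebo (edgeR, unadjusted p = 0.0561, adjusted p = 0.559) and 0.65 ± 0.29 in sham against placebo (unadjusted p = 0.0445, adjusted p = 0.391), and the latter was 0.27 without sham replicate 2 (GR13). Within surface-marker nuclei the Cgn value in PL8177 against placebo was 0.35 ± 0.35. Its paralogue Cgnl1 (paracingulin) was rare, with 162 UMIs in all, at 0.167, 0.178 and 0.101 in sham, 0.0809, 0.0627 and 0.0791 in placebo, against 0.101, 0.0582 and 0.0779 in PL8177. Every sham tag was above every placebo tag, by a log2 fold change of 1.09 ± 0.43 (edgeR, adjusted p = 0.339). The lowest sham tag (GR15, 0.10094) was barely above the highest PL8177 tag (GR41, 0.10068), so the lack of overlap with PL8177 rests on a near tie. In PL8177 against sham the log2 fold change of Cgnl1 was -0.96 ± 0.42 (edgeR, adjusted p = 0.747).

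Mpdz, a scaffold of many PDZ domains, had its highest levels in placebo, on 173 UMIs in all. It had 0.210, 0.251 and 0.0961 UMIs per 10000 in placebo, 0.0597, 0.0445 and 0.0606 in sham and 0.0280, 0.0825 and 0.0260 in PL8177. Placebo lay above both other treatments in every tag, with log2 fold changes of -1.49 ± 0.56 in sham (edgeR, unadjusted p = 0.0197, adjusted p = 0.325) and -1.60 ± 0.51 in PL8177 against placebo (unadjusted p = 0.00806, adjusted p = 0.374). DESeq2 gave no adjusted p for Mpdz in either. Without placebo replicate 2 (GR23) the Mpdz values were -1.36 and -1.48, and without PL8177 replicate 2 (GR43) the second was -2.49. Magi1, a membrane-associated guanylate kinase scaffold, was at 9.01, 9.53 and 9.32 in placebo, against 11.1, 10.3 and 10.4 in PL8177, without overlap. Its log2 fold change was 0.36 ± 0.21 (edgeR, adjusted p = 0.641), 0.18 ± 0.21 when scaled by total UMIs only and 0.17 ± 0.24 in surface-marker nuclei.

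In the polarity group, 2 kinases and 2 PAR proteins position the tight junction. Prkcz, an atypical protein kinase C, was at 5.76, 4.68 and 5.17 in sham, 4.56, 3.98 and 4.27 in placebo, against 5.06, 5.57 and 4.29 in PL8177. Sham lay above placebo in every tag, with a log2 fold change of 0.43 ± 0.20 (edgeR, unadjusted p = 0.0457, adjusted p = 0.393), and 0.28 ± 0.21 when scaled by total UMIs only and 0.26 ± 0.22 in surface-marker nuclei. Pard6b, its partner in the PAR complex, was at 0.567, 0.219 and 0.356 in placebo, against 0.554, 0.672 and 1.01 in PL8177, with overlap, and had a log2 fold change of 1.01 ± 0.39 (edgeR, unadjusted p = 0.0237, adjusted p = 0.470). Pard3 and Prkci, the other scaffold and the other atypical kinase, had fitted changes between -0.11 and 0.02 in all 3 comparisons.

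In the adherens group, Shroom3, an actin-binding protein of the apical adherens belt, had a lower mean level in placebo than in both other treatments. Its level was 16.4, 16.5 and 12.04 in placebo, 24.04, 17.6 and 21.7 in sham and 23.7, 22.5 and 19.98 in PL8177. No placebo tag reached the lowest sham or PL8177 tag. Shroom3 had a log2 fold change of 0.65 ± 0.21 in sham (edgeR, unadjusted p = 0.00996, adjusted p = 0.261) and 0.73 ± 0.21 in PL8177 against placebo (unadjusted p = 0.00497, adjusted p = 0.354). The study named Shroom3 among the enterocyte genes it selected on these nuclei, so the direction is not independent evidence. After thinning to 300 UMIs, a Shroom3 UMI was found in 29.8% of placebo nuclei (95% exact binomial interval 28.1 to 31.5%, counting error only), 41.7% of sham (39.7 to 43.8%) and 41.0% of PL8177 nuclei (39.3 to 42.7%), and in 12.8% of T cell nuclei without GR23. As deposited, at unequal depth, the 3 shares were 66.6%, 66.8% and 74.6%. With 3 against 3 tags an exact two-sided permutation test cannot go below 0.1, and it gave 0.1 for placebo against either other treatment.

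Cdh1, which encodes E-cadherin, the adhesive core of the junction, had its highest mean level in PL8177. It was at 25.5, 23.0 and 21.3 in PL8177, 20.6, 19.0 and 17.6 in sham and 17.8, 14.6 and 18.8 in placebo. The PL8177 tags lay above all others and the sham and placebo tags overlapped. The log2 fold change of Cdh1 was 0.61 ± 0.22 against placebo (edgeR, unadjusted p = 0.0159, adjusted p = 0.433) and 0.29 ± 0.22 against sham (adjusted p = 0.833), the latter 0.07 ± 0.26 in thinned nuclei. After thinning, 43.8% of PL8177 nuclei (42.1 to 45.6%), 35.7% of placebo nuclei (34.0 to 37.5%) and 40.5% of sham nuclei (38.5 to 42.6%) had a Cdh1 UMI, against 14.1% of T cell nuclei without GR23. As deposited, at unequal depth, the Cdh1 shares were 76.2%, 72.0% and 67.6% in the same order, with sham below placebo. Epcam, an epithelial adhesion molecule that binds Cldn7, was at 8.53, 9.86 and 9.61 in PL8177, 6.84, 5.30 and 4.30 in sham and 11.3, 4.23 and 7.08 in placebo. PL8177 and sham did not overlap (log2 fold change 0.78 ± 0.33, edgeR, unadjusted p = 0.0334, adjusted p = 0.747), and the placebo tags spread over both.

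Nectin3, an immunoglobulin-like adhesion molecule of the adherens junction, had its highest mean level in placebo, where Cdh1 and Shroom3 had their lowest. Its level was 2.26, 2.41 and 2.28 in placebo, 1.23, 0.557 and 1.29 in sham and 1.42, 1.56 and 1.25 in PL8177. The placebo tags were close to each other and above every other tag. Nectin3 had a log2 fold change of -1.02 ± 0.26 in sham against placebo (edgeR, unadjusted p = 0.00175, adjusted p = 0.195), a difference that DESeq2 called (adjusted p = 0.0303). In PL8177 against placebo it was -0.55 ± 0.25 (edgeR, unadjusted p = 0.0471, adjusted p = 0.529; DESeq2, adjusted p = 0.436). A Nectin3 UMI was found in 6.79% of placebo (5.90 to 7.78%), 2.76% of sham (2.12 to 3.53%) and 4.28% of PL8177 nuclei (3.60 to 5.05%) thinned to 300 UMIs. The share in T cell nuclei without GR23, 3.62% (1.82 to 6.38%), stands beside these values with intervals that cover counting error only. In 4 of the 8 tags behind it (GR13, GR41, GR43 and GR44) the nuclei labelled T cells held more enterocyte than T cell marker UMIs. Within surface-marker nuclei the Nectin3 values were -1.18 ± 0.34 in sham and -0.68 ± 0.32 in PL8177 against placebo. The catenins, which tie cadherins to actin, had changes of -0.12 to 0.31 in the 3 comparisons and no p below 0.05.

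**Figure D3:**
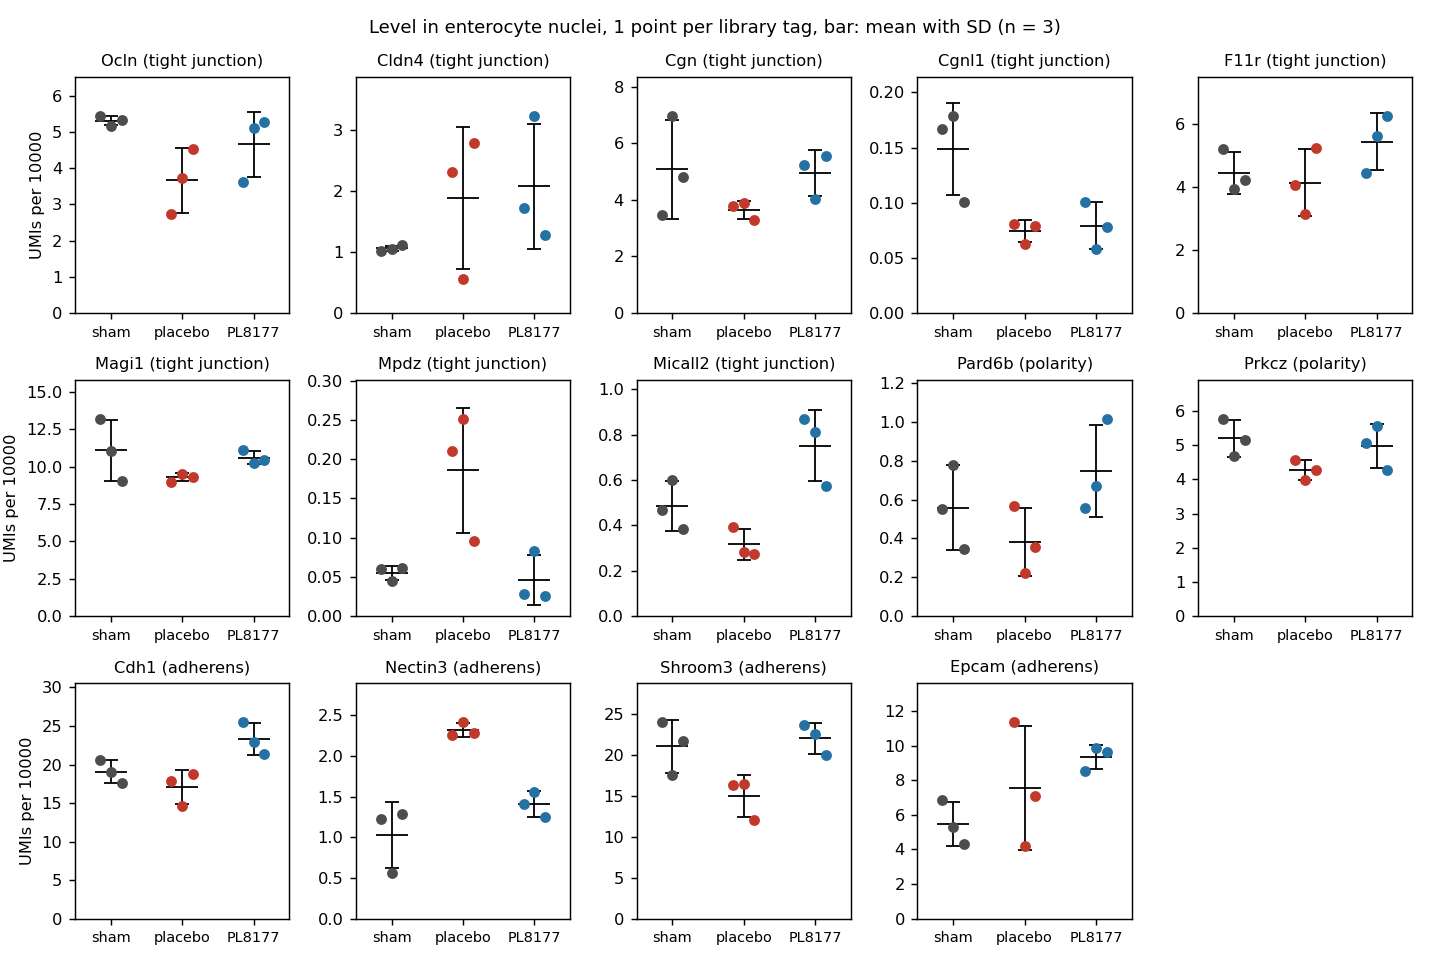
Level (UMIs per 10000 UMIs of enterocyte nuclei, y axis from 0) of the 14 junction genes with an unadjusted p below 0.05 or groups that did not overlap in a treatment comparison; points are library tags and bars the mean with SD (n = 3). Placebo sits below sham for Ocln and Shroom3 and above it for Nectin3 and Mpdz in every tag, and PL8177 sits above placebo for Micall2, Cgn, Cdh1 and Shroom3.

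The 5 desmosome genes, cadherins Dsg2 and Dsc2 and plaque proteins Dsp, Jup and Pkp3, had no unadjusted p below 0.05 and no separation of treatments. Their fitted log2 fold changes were -0.30 to 0.45 in sham against placebo, 0.12 to 0.57 in PL8177 against placebo (all 5 above 0) and -0.10 to 0.46 in PL8177 against sham. Over all roles, 24 members met neither criterion in any comparison, with ranges of -0.86 to 0.73, -0.65 to 0.57 and -0.75 to 0.56 in the same order. The share of all genes that met either criterion in any comparison is not given here. Whether the 14 other members exceed that background was therefore not tested.

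In a split of the tags by depth, 1 of the 38 members was higher and 1 lower without overlap, shares below those of all genes. Dsp, which encodes desmoplakin, the link from desmosome to keratin, was at 8.16 to 12.2 in the 5 tags with the lowest median UMIs per nucleus (GR13, GR15, GR23, GR44 and GR24) and at 5.79 to 6.77 in the 4 deepest, with no overlap (3.62% of all genes were higher in this way). Ctnna1, alpha-catenin, ran the other way, at 3.70 to 5.05 against 5.25 to 5.74 (background 4.92%). Each treatment held tags of both kinds. The ranges of the other members overlapped between shallow and deep tags.

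Colonocytes change their junctions as they leave the crypt for the surface, so the members were also compared within the enterocyte nuclei. Each nucleus was thinned to 300 UMIs, and a surface-marker nucleus held at least 1 UMI of 11 surface colonocyte markers (such as Slc26a3, Krt20 and Guca2a) and none of 16 crypt or cycling markers. Of 8220 nuclei with 300 UMIs, 6253 were of this class, 140 held only crypt markers, 276 held both and 1551 held neither; 1181 surface-marker nuclei rested on exactly 1 marker UMI. The share of surface-marker nuclei was 77.4%, 94.3% and 88.7% in the sham tags, 72.8%, 55.9% and 63.6% in the placebo tags, and 70.6%, 75.1% and 90.9% in the PL8177 tags. All sham tags lay above all placebo tags, and the PL8177 tags overlapped both; the part of this in the treatment comparisons over all enterocyte nuclei was not tested beyond the values within surface-marker nuclei. Members had no part in the definition, both classes came from the same tags, and the tag was a block in the fit. Crypt-marker nuclei were too few in 3 tags, so the comparison with all 1691 nuclei without surface markers, in 9 tags, was added after seeing the data.

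Most junction genes tested had a higher level in surface-marker nuclei. Of the 29 members that could be tested, 18 were called higher in surface-marker nuclei (21.9% of 4541 genes were), 2 lower (15%) and 9 not called, against 36.8% of all genes called in either direction. DESeq2 called 17 (32.2% of all genes), and 24 had an unadjusted p below 0.05 by edgeR (47.1%). The median log2 fold change was 0.71, beside -0.01 over all genes tested. By role, 10 of 14 tight junction genes, 1 of 3 polarity genes, 4 of 7 adherens genes and 3 of 5 desmosome genes were called higher. The nuclei without surface markers held 18.3 UMIs per 10000 of enterocyte markers pooled, against 184 in surface-marker nuclei, and 5 of those 15 markers had any UMI there. Slc26a3, Krt20, Car4, Aqp8, Guca2a, Guca2b, Slc51a, Mep1a and Cdhr5 are on both lists and are at 0 there by definition. The whole surface list held 167 UMIs per 10000 in surface-marker nuclei. The gap in enterocyte markers is thus no measure of how far the other nuclei are enterocytes. The T cell markers were at 1.36 in nuclei without surface markers against 0.522 in surface-marker nuclei, and myeloid markers at 0.177 against 0.714. The part of these differences in the result was not tested.

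Among the 29 members tested, the 2 largest fitted differences were those of Cldn4 and Cldn3. Both had few UMIs in nuclei without surface markers (20 and 19 in all) and most of theirs in surface-marker nuclei (366 and 250). Cldn23 and Pard6b, also rare in nuclei without surface markers, were left out by the filter on low counts, so the ranking depends on that filter. A member could pass the filter on the counts of 1 class alone. The fitted sizes and p-values of Cldn4 and Cldn3 are thus descriptions and not tests of direction. Cldn4 was at 0.883 to 3.12 UMIs per 10000 in surface-marker nuclei (median 1.49 over 9 tags) and at 0 to 1.39 (median 0.304) in the others. It was higher in all 9 tags, by 366 UMIs against 20 in all and a log2 fold change of 2.64 ± 0.29 (edgeR, adjusted p = 8.17e-18). Cldn3 was at 0.522 to 2.48 (median 1.02) against 0.155 to 2.56 (median 0.553), higher in 8 of 9 tags, with a log2 fold change of 2.16 ± 0.31 (adjusted p = 6.2e-11 by edgeR's quasi-likelihood test). The exception was GR13, whose 13 nuclei without surface markers are the fewest of any tag. Cldn7 was at 2.29 to 5.13 (median 4.26) against 0.565 to 3.47 (median 1.90), higher in all 9 tags, with 1.22 ± 0.18 (edgeR, adjusted p = 1.63e-10). F11r was at 2.87 to 6.36 (median 4.27) against 0.952 to 3.97 (median 1.80), also higher in all 9 tags, with 1.25 ± 0.17 (edgeR, adjusted p = 6.79e-12). Cdh1 was at 12.1 to 24.3 (median 19.0) against 6.94 to 15.7 (median 11.3), again in all 9 tags, with 0.90 ± 0.14 (edgeR, adjusted p = 5.76e-10).

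Jup (plakoglobin, shared by desmosomes and adherens junctions), Tjp1 (the scaffold ZO-1) and Ocln were higher by 1.33 ± 0.22, 1.00 ± 0.17 and 0.95 ± 0.17 on the log2 scale. Cldn23 was too rare to be tested, with 59 UMIs in surface-marker nuclei and 3 in the rest, and Pard6b had 102 against 6. Also untested, Cldn12, Micall2 and Nectin1 were higher in surface-marker nuclei in 8, 7 and 6 of 9 tags. Other untested members were lower there: Cgnl1 in 8 of 9 tags (20 against 14 UMIs), Cldn8 in 7 (38 against 24), and Mpdz and Cldn2 in 5. Among the members tested, Cldn15 was lower, at 0 to 0.371 (median 0.292) in surface-marker nuclei and 0 to 1.90 (median 1.11) in the others. It was lower in surface-marker nuclei in 7 of 9 tags, on 50 and 43 UMIs, with a log2 fold change of -1.39 ± 0.36 (edgeR, adjusted p = 0.000678). Prkci was also lower, in 5 of 9 tags, at medians of 1.07 and 1.90 and a log2 fold change of -0.61 ± 0.22 (edgeR, adjusted p = 0.014); without placebo replicate 1 (GR22) it was -0.37 and not called, and DESeq2 did not call it. Not called were Tjp3, Marveld2, Igsf5, Pard3, Ctnna1, Ctnnb1, Nectin3, Dsp and Pkp3, of which Tjp3 was at -0.14 ± 0.20 and Nectin3 at -0.24 ± 0.20. By level, Tjp3 and Pard3 were lower in surface-marker nuclei in 8 and 7 of 9 tags, and Ctnnb1 and Dsp were higher in 8 and 7.

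**Figure D4:**
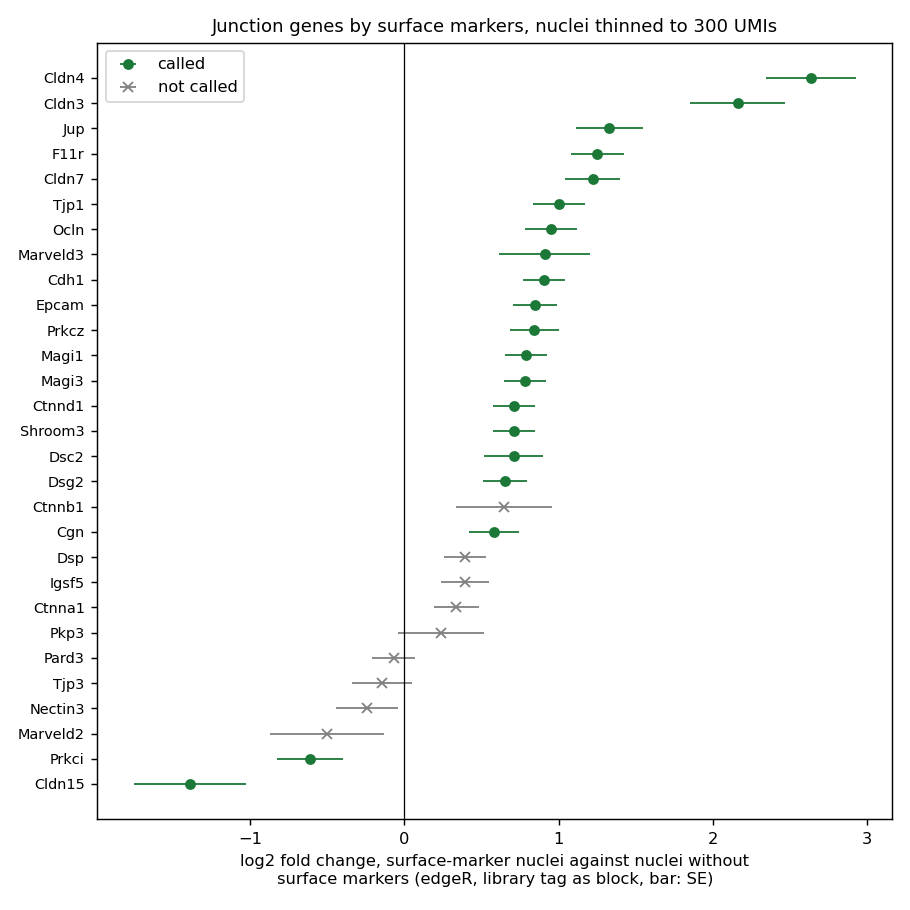
Fitted log2 fold change (edgeR with the library tag as a block, bars are SE) of 29 junction genes in surface-marker nuclei against nuclei without surface markers, thinned to 300 UMIs. Of the genes that passed the filter on low counts, Cldn4 and Cldn3 lie furthest to the right, at 2.64 and 2.16. They rest on 20 and 19 UMIs in nuclei without surface markers. Cldn15 lies furthest to the left, at -1.39, and crosses mark genes not called.

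In the comparison with crypt-marker nuclei, 6 tags had at least 10 nuclei of each class and 18 members could be tested. Of these 10 were called, all higher in surface-marker nuclei (32.1% of 1169 genes were called, 25.1% as higher and 7.01% as lower), and 11 had an unadjusted p below 0.05 (41.1% of all genes). DESeq2 called 3, Cdh1, Shroom3 and Magi3 (22.1% of all genes). Cdh1 had a log2 fold change of 1.19 ± 0.25 (edgeR, adjusted p = 4.4e-05), Shroom3 0.98 ± 0.25, Magi3 1.03 ± 0.26, Magi1 1.12 ± 0.30 and Ctnnd1 (p120-catenin) 0.93 ± 0.28. These values rest on 23 to 44 UMIs in crypt-marker nuclei for each of the 5 genes, and without placebo replicate 2 (GR23) they were 1.55 to 1.91. The other called members had fewer there: Cldn7 6 (0 in 4 of 6 tags), F11r 8, Ocln 9, Tjp1 11 and Epcam 18, against 508 to 1070 in surface-marker nuclei. No member with so few UMIs in surface-marker nuclei passed the filter. A call in the other direction was thus not possible at such counts, and no conclusion on direction is drawn from these members. Magi1 and Ctnnd1 were not called by DESeq2. Cldn4 had 302 UMIs in surface-marker and 0 in crypt-marker nuclei, too few to be tested.

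Whether the surface difference itself changed with treatment was tested as an interaction, which called no gene (0 of 4541, 0%, by edgeR) in any comparison. At an unadjusted p below 0.05 there were 2, 2 and 0 of 29 members in sham against placebo, PL8177 against placebo and PL8177 against sham, where 4.82%, 3.3% and 4.05% of all genes were. Cldn3 had the largest, with an interaction of -2.70 ± 1.07 in sham against placebo (edgeR, unadjusted p = 0.0115, adjusted p = 0.849), the fitted surface difference being smaller in sham. Over all 9 tags only 19 Cldn3 UMIs came from nuclei without surface markers, and the sham tags had 168, 13 and 59 such nuclei. Within surface-marker nuclei alone, the treatment values were 0.78 ± 0.31 for Ocln and 0.60 ± 0.26 for Shroom3 in sham against placebo, and 0.56 ± 0.26 for Shroom3 and 0.47 ± 0.26 for Cdh1 in PL8177 against placebo. Cldn4 was at -1.05 ± 0.37 in sham against placebo there.

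Promoters of the 3 members with an entry and the smallest adjusted p among those higher in surface-marker nuclei, and of Cldn15, which was lower, are shown so that the letters known to bind epithelial regulators can be seen beside the values. Each is the 250 bases before the gene's start in RefSeq on rat build GRCr8, not the build of the counts, written 5′ to 3′ on the gene's strand. Entries were found for 28 of the 40 members. Capitals mark matches, on either strand, to the E-box CAGGTG of Snail and Zeb repressors, to CACCC (Krüppel-like factors), CAAAGTCCA (HNF4), TTTATG (CDX) or AACCNGTT (grainyhead-like), and no marked match overlapped another.
Cldn3 (chr12:27346548-27346797, - strand): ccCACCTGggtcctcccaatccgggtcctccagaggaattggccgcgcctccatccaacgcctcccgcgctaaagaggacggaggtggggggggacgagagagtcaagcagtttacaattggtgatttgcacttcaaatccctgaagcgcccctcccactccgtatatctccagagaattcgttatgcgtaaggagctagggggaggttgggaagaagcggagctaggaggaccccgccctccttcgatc
Cldn7 (chr10:55188420-55188669, + strand): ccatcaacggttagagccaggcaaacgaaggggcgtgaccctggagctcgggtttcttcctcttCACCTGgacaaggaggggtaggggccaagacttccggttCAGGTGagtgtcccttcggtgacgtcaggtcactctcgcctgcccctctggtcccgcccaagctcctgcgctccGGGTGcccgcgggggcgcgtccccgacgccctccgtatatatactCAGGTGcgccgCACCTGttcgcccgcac
F11r (chr13:86405979-86406228, + strand): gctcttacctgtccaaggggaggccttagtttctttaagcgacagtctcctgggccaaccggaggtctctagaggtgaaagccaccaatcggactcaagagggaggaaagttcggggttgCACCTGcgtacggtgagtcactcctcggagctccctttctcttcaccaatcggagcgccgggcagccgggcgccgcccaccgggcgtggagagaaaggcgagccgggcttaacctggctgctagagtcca
Cldn15 (chr12:25343626-25343875, - strand): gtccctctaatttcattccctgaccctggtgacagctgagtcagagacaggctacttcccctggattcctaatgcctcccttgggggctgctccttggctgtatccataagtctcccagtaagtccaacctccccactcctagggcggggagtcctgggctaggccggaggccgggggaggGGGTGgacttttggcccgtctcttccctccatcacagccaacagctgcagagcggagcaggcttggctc

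CAGGTG was found in Cldn3, F11r and, 4 times, in Cldn7, and not in this window of Cldn15. It was in 11 of 28 member promoters (39.3%) and 15.9% of 33360 promoters of the same length. CACCC, found here in Cldn7 and Cldn15, was in 64.3% of member and 49.2% of all promoters. The letters CAAAGTCCA were in 0 of 28 and 0.339%, TTTATG in 7.14% and 11.4%, and AACCNGTT in 7.14% (Cgn and Tjp1) and 1.76%. A match is a description of the sequence and not a bound site.

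The nuclei labelled T cells served as the background, since T cells should lack epithelial junctions. Over the 15108 genes shared by all tables, 34 of the members could be compared. Without GR23, the members summed to 44.4 to 69.4 UMIs per 10000 in T cell nuclei of 8 tags and to 143 to 171 in enterocyte nuclei of the same tags. The median ratio of enterocyte to T cell level was 1.44 on the log2 scale over 33 members, and 28 were higher in enterocytes. The same values over all shared genes are not given here, so how far the members differ from other genes was not tested. Cldn7 was at 4.53 against 0.715, F11r at 5.10 against 1.09 and Cdh1 at 21.4 against 5.10. At lower levels in enterocytes were Cldn2 (0.0512 against 0.258), Cgnl1 (0.0998 against 0.357), Mpdz (0.103 against 0.516), Nectin1 (0.0892 against 0.159) and Prkci (1.04 against 1.29). These include Cgnl1 and Mpdz of the treatment comparisons. Without the further 4 tags whose nuclei labelled T cells held more enterocyte than T cell marker UMIs, the median was 1.41 over 31 members, and 26 were higher in enterocytes. Without GR23 only, Nectin3 was close to its T cell level, at 1.73 against 1.45 and higher in enterocytes in 5 of 8 tags. So were Ctnnb1 (0.764 against 0.655, 4 of 8 tags) and Marveld2 (0.460 against 0.357, 7 of 8 tags). In GR23 the ratio was not kept: the members summed to 165 in nuclei labelled T cells and 138 in enterocyte nuclei.

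**Figure D5:**
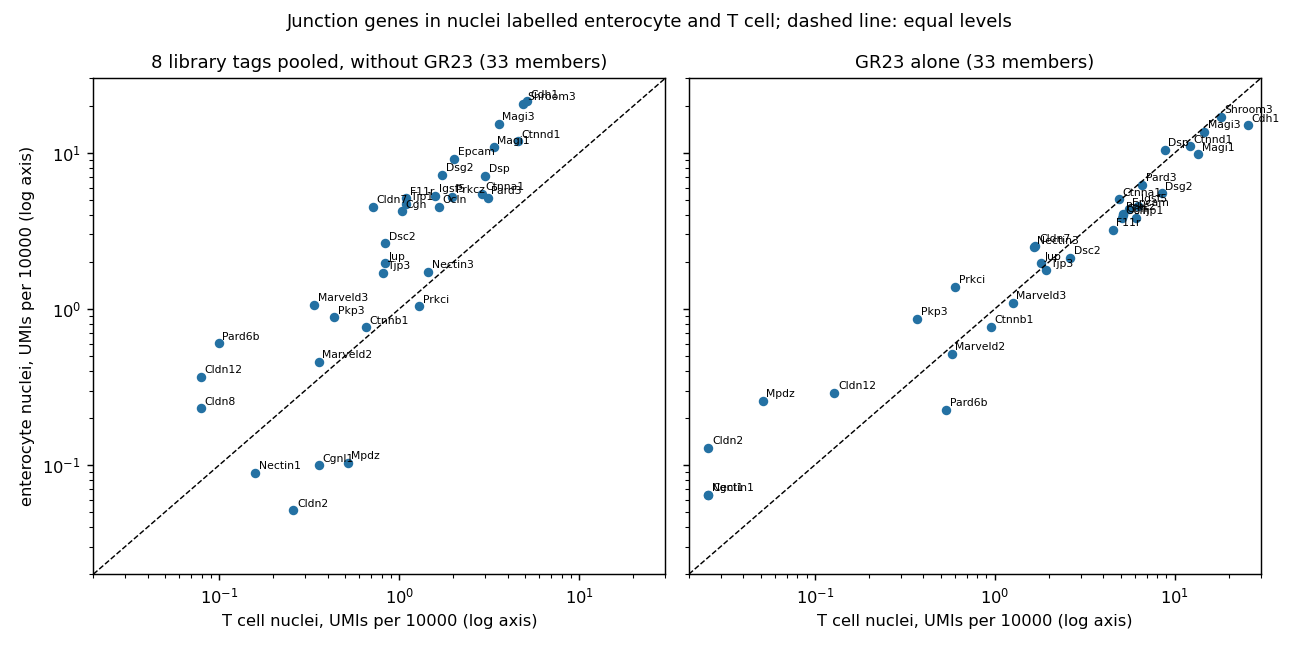
Level of each junction gene in enterocyte nuclei (y axis) against nuclei labelled T cells (x axis), UMIs per 10000 on log axes, for 8 library tags pooled (left) and for GR23 (right); the dashed line marks equal levels. Most genes lie above the line on the left, with Cldn2, Cgnl1, Mpdz, Nectin1 and Prkci below it, and most genes with a level above 1 lie near the line in GR23.

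A list of 79 other junction genes gave 67 found and 48 tested, of which edgeR called 0 in each comparison and DESeq2 1 in sham against placebo. At an unadjusted p below 0.05 were 3 higher and 2 lower in sham against placebo (6.54% and 5.9% of all genes), 4 and 1 in PL8177 against placebo (5.5% and 3.75%), and 2 and 2 in PL8177 against sham (3.09% and 3.5%). Without overlap of the tags, 3 were higher and 6 lower in sham against placebo (5.36% and 14.3% of all genes). These counts were 3 and 8 in PL8177 against placebo (4.7% and 14.1%), and 3 and 4 in PL8177 against sham (6.02% and 6.01%). Nectin2, a further nectin, was at 1.60 ± 0.329 in placebo, 2.71 ± 0.316 in sham and 2.74 ± 0.163 in PL8177, the reverse of Nectin3, with log2 fold changes of 0.91 ± 0.23 and 0.93 ± 0.23 against placebo (edgeR, adjusted p = 0.195 and 0.270); it was named after its values were seen, and the study lists Nectin2, like Shroom3, among the enterocyte genes it selected on these nuclei, so its direction is not independent evidence. Cdh17, the liver-intestine cadherin, was at 11.96 ± 1.18 in sham, 14.7 ± 2.57 in placebo, against 18.6 ± 0.765 in PL8177, with 0.50 ± 0.22 against placebo and 0.65 ± 0.22 against sham (edgeR, adjusted p = 0.523 and 0.733). Afdn (3.58 to 4.51 as treatment means), Cxadr (4.12 to 4.97) and Lsr (0.709 to 1.12) had no p below 0.05 in a treatment comparison, and Cldn10 had 5 UMIs. In surface-marker nuclei 13 of 34 were called higher (21.9% of all genes) and 1 lower (15%), among the higher ones Cxadr (1.70 ± 0.19) and Cdh17 (1.01 ± 0.14), while Afdn was at -0.03 ± 0.14.

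Of 20 regulators of junction genes 13 were tested and none was called between treatments. Elf3, Hnf4a, Vdr and Ihh had an unadjusted p below 0.05 in sham against placebo, all 4 of the 13 higher in sham (6.54% of all genes), and Hnf4a was at 24.5 ± 10.7 in sham, 14.2 ± 2.28 in placebo, against 15.1 ± 5.17 in PL8177 (log2 fold change 0.97 ± 0.38 against placebo, edgeR, adjusted p = 0.337; 0.54 without sham replicate 2, GR13). Both Hnf4a and Elf3 separated by depth: Hnf4a was at 15.3 to 34.6 in the 5 shallowest tags and 11.5 to 13.3 in the 4 deepest, and Elf3 at 16.9 to 101.9 (GR13) and 7.397 to 14.7. Sham held the 2 shallowest tags, GR13 and GR15, and the part of depth in these values was not tested. In PL8177 against placebo 0 of the 13 had an unadjusted p below 0.05 (9.24% of all genes), and in PL8177 against sham 1 was higher (Cdx2, 3.09%) and 1 lower (Elf3, 3.5%). Klf4 was at 4.99 ± 1.63, 6.55 ± 2.70 and 6.79 ± 2.13 and Grhl2 at 0.904 ± 0.167, 1.15 ± 0.394 and 1.01 ± 0.237 in sham, placebo and PL8177, and Zeb1 had 18 UMIs. By surface markers, 5 of the 13 were called higher (21.9% of all genes) and 2 lower (15%): Klf4, which acts in differentiated colonocytes, was at 0.90 ± 0.15, and Grhl2, a grainyhead-like activator of claudin and cadherin genes, at -0.66 ± 0.21.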

How the data were processed

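Counts were those the authors deposited: whole-number UMI counts per gene and nucleus, from 10x Genomics 3′ libraries of nuclei, made according to the study's methods and the submitters' processing notes with Cell Ranger 6.0.1 (introns included, Rattus norvegicus genome 6.0), background removal with CellBender, filters of 3 cells per gene, 200 genes and under 5% mitochondrial counts per nucleus, and clusters named in Seurat 4.0.3. The effect of counting introns and of removing background on the levels of low genes was not tested. The placebo T cell table ended within a line and was used for 15108 of 17388 genes. The 4 members Cldn3, Cldn4, Cldn15 and Micall2 therefore have no placebo T cell value and no pooled T cell level. Only for Micall2 was a T cell share taken, in sham and PL8177, and the background of the others was not checked.

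UMIs were summed per library tag and tested with edgeR 4.0.16 (R 4.3.3): TMM, filterByExpr, quasi-likelihood test over all 9 tags, Benjamini-Hochberg adjustment over all genes tested. A call was an adjusted p below 0.05 with a log2 fold change beyond 0.5 in size. Scripts were tested on simulated data. Enterocyte totals were 319125 to 4123319 UMIs per tag; intervals cover counting error only. Shares used exact binomial intervals (95%) after thinning to 300 UMIs. Named members had an unadjusted p below 0.05 or no overlap between groups. DESeq2 1.42.0, other scalings, filters, thinning, surface-marker nuclei only, doublet removal and left-out tags were the alternatives. No doublet caller was run. The members and lists were chosen with earlier results of these data known. Promoter sequences are from RefSeq (GRCr8).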

Additional observations from a re-analysis of the deposited data

Results flagged for a closer look

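For 5 of the 20 members called in surface-marker nuclei, 1 library tag stood apart in its difference of level (UMIs per 10000, surface-marker minus other nuclei), where chance marks about 1 in 20 groups. In sham tag GR13 the difference was -2.042 for Cldn3, -2.692 for Cgn, -10.13 for Magi1 and 9.703 for Ctnnd1, and this tag had 13 nuclei without surface markers. In sham tag GR15 the difference was 4.568 for Cldn7.

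In the nuclei labelled T cells of placebo tag GR23, the members summed to 164.7 UMIs per 10000, against 44.4, 65.7 and 59.9 in the T cell nuclei of the sham tags. These nuclei also held enterocyte markers at 143 UMIs per 10000; what part those had in the sum was not tested.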

How the results depend on the processing

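No paired analysis was possible because the library tags carry no replicate number that ties rats of different treatments. Of the single members, none changed direction in a result past its threshold; 2 medians of the members changed sign, as given here. In sham against placebo edgeR called 0 genes; DESeq2 called 107 (1 member, Nectin3), total UMIs only 5, no filter on low counts 51, thinned nuclei 13, and leaving out possible doublets or keeping surface-marker nuclei only 1 each. The median of the members was -0.069 with total UMIs only, a scaling that moved the median of all genes to -0.16. In PL8177 against placebo DESeq2 called 50 genes (1 member, Micall2) and no filter gave 8, and the median was 0.060 with total UMIs only (-0.17 over all genes). In PL8177 against sham DESeq2 called 4 and no filter 10, and the median was -0.048 in thinned nuclei. Leaving out 1 tag gave 0 to 8, 0 to 0 and 0 to 2 genes in the 3 comparisons, never a member, and medians of 0.03 to 0.18, 0.15 to 0.26 and 0.06 to 0.15. Against crypt-marker nuclei DESeq2 called 3 members with a median of 0.81, and the median was 0.68 without Slc26a3; leaving out 1 tag gave 270 to 931 genes, 5 to 18 members and medians of 0.75 to 1.58, the highest values all without placebo replicate 2 (GR23). Against nuclei without surface markers the median was 0.54 without Slc26a3, and leaving out 1 tag gave 1403 to 1737 genes, 18 to 21 members and medians of 0.66 to 0.80. The enterocyte to T cell median log2 ratio was 0.28 with all tags, 1.44 without GR23 and 1.41 without the 5 tags whose T cell nuclei held more enterocyte than T cell marker UMIs. As deposited, the shares of nuclei in sham, placebo and PL8177 were 36.8%, 34.3% and 40.1% for Ocln (thinned 13.3%, 8.26% and 11.2%), 33.0%, 37.5% and 35.3% for Cldn7 (thinned 11.4%, 9.00% and 9.74%, the order of sham and placebo reversed) and 66.8%, 66.6% and 74.6% for Shroom3. The cause of these shifts was not tested. Crypt-marker nuclei only could not be compared between treatments, with 0 such nuclei in GR13 and 1 in GR15. Cldn2, Cgnl1, Mpdz and Nectin1, with 86 to 173 UMIs each, are limited by depth.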
